A study of Mus musculus with 8 samples.

Results

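The collagen genes are the family whose symbols read Col followed by a digit, and 44 of them were measured among 22180 genes on expression arrays of mouse medulloblastoma, a tumour of the cerebellum. A gene was taken from probe sets that name it alone, and where several did so the one with the highest mean over the 8 arrays was used. The members fall into 11 fibrillar chains, 8 chains of basement membranes and 25 others. All tumours came at postnatal day 15 from mice carrying Math1-Cre and SmoM2, in which Cre from the Math1 (Atoh1) promoter turns on an active Smoothened in granule neuron precursors. The 4 Bcl2l1-deleted tumours were of genotype Math1-Cre/SmoM2/Bcl2l1 f/f, so that the same Cre also removes Bcl2l1, which encodes the survival protein BCL-xL, and the 4 control tumours were Math1-Cre/SmoM2. No mouse received an outside agent. The labels do not say whether each tumour came from its own animal, so p-values measure the spread between these samples. The values are log2 RMA expression values of whole tumour RNA. In such bulk samples fewer cells of a type and less RNA per cell cannot be told apart, and Math1-driven Cre is not known to act in the fibroblasts and vessel cells that make most collagen.

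Collagens are secreted proteins built from chains with a repeating glycine motif, which wind around each other inside the cell before export. Fibrillar collagens (types I, II, III, V, XI, XXIV and XXVII) assemble into the cable-like fibres of connective tissue. Type IV forms the sheet under endothelium and around the brain surface, with types XV and XVIII at its edge. In the brain the fibrillar chains are made mainly by fibroblasts of the meninges and around vessels, and type IV by endothelial and mural cells, while type VI forms beaded microfibrils around such cells. A collagen molecule often joins chains of different genes, such as Col1a1 with Col1a2, Col4a1 with Col4a2, or Col6a1 with Col6a2 and Col6a3.

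The windows around the annotated starts of 3 members are printed here because 2 of these genes, Col1a2 and Col6a1, changed between the genotypes, and because Col4a2 lies head to head with its partner chain Col4a1. They come from RefSeq (GRCm38.p6), hold 250 bases before and 50 after the start, and read 5′ to 3′ on the gene's strand. Windows were given for 35 of the 44 members. In the Col4a2 window (chr8:11312555-11312854, plus strand) the capitals mark the 78 bases shared with the Col4a1 window on the other strand. The annotated starts of Col4a1 and Col4a2 lie 21 bases apart. In the Col1a2 window (chr6:4505368-4505667, plus strand) and the Col6a1 window (chr10:76725995-76726294, minus strand) the capitals mark matches to the CCAAT motif, to the GC box GGGCGG and to the TATA box TATAAA on either strand, which may overlap one another.
Col4a2: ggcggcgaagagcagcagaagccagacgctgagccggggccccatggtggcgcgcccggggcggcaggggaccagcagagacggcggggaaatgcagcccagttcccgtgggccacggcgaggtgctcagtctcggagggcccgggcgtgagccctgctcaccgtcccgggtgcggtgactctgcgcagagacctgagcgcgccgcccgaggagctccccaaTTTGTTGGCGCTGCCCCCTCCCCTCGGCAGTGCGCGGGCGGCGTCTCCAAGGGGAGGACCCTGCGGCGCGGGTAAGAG
Col1a2: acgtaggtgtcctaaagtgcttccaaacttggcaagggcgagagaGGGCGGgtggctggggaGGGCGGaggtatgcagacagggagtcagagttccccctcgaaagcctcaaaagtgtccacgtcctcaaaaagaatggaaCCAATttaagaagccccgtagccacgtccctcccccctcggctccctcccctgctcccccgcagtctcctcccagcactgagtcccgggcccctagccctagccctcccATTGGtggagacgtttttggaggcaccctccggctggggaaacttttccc
Col6a1: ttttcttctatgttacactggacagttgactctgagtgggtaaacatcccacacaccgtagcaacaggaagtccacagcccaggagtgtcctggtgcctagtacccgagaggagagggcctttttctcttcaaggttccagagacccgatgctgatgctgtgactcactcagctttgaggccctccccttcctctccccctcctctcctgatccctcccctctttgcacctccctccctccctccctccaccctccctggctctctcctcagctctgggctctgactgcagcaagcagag

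The Col1a2 window held 2 matches to CCAAT and 2 to GGGCGG, and the Col6a1 window held none of the 3 motifs. The Col4a2 window held 1 match to CCAAT and 3 to GGGCGG. Over all 38 member windows, 60.5% held GGGCGG, 34.2% CCAAT and 13.2% TATAAA. Of all 32851 windows in the table, 35.7%, 37.4% and 13.6% held them in the same order. These are matches of letters and not mapped binding sites.

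The arrays set limits that touch the members. Control replicate 2 stood apart: its correlations with the other arrays over all genes reached at most 0.948, and the median of 1394 chemosensory receptor genes, which report mostly background in brain, was 3.60 there and 2.79 to 3.09 elsewhere. Collagen values on this array followed their level. Of the 16 members above the 50th percentile of all genes, 12 were lower on control replicate 2 than the mean of the other controls (median difference -0.29), against 9843 of 11090 genes. Of the 19 members between the 30th and 50th percentile, 14 were higher there (median difference 0.31), against 2924 of 4436 genes (0.23). Of the 9 dimmer ones 8 were higher (0.24), against 5538 of 6654 genes (0.46). Values without this array are therefore given beside the results it touches most. The receptor median also moved with the genotype: it was 2.79 to 2.92 in the Bcl2l1-deleted tumours and 2.94 to 3.60 in the controls (exact permutation test, two-sided, p = 0.0286, the smallest that 70 regroupings can give). Its part in the results was not tested, and it enters 1 alternative as a covariate. The level of Xist enters another. It read 10.08, 9.63, 4.91 and 4.7 on Bcl2l1-deleted replicates 1 to 4. On control replicates 1 to 4 it read 10.54, 9.89, 4.53 and 10.33. The part of Xist in the results was not tested. The deleted gene, Bcl2l1, read 5.32 to 5.69 in the Bcl2l1-deleted tumours and 6.57 to 6.98 in the controls (limma adjusted p = 0.00509), which fits the labels. Of 11 markers of Sonic hedgehog medulloblastoma, all were above the dim filter and none passed the test.

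**Figure D1:**
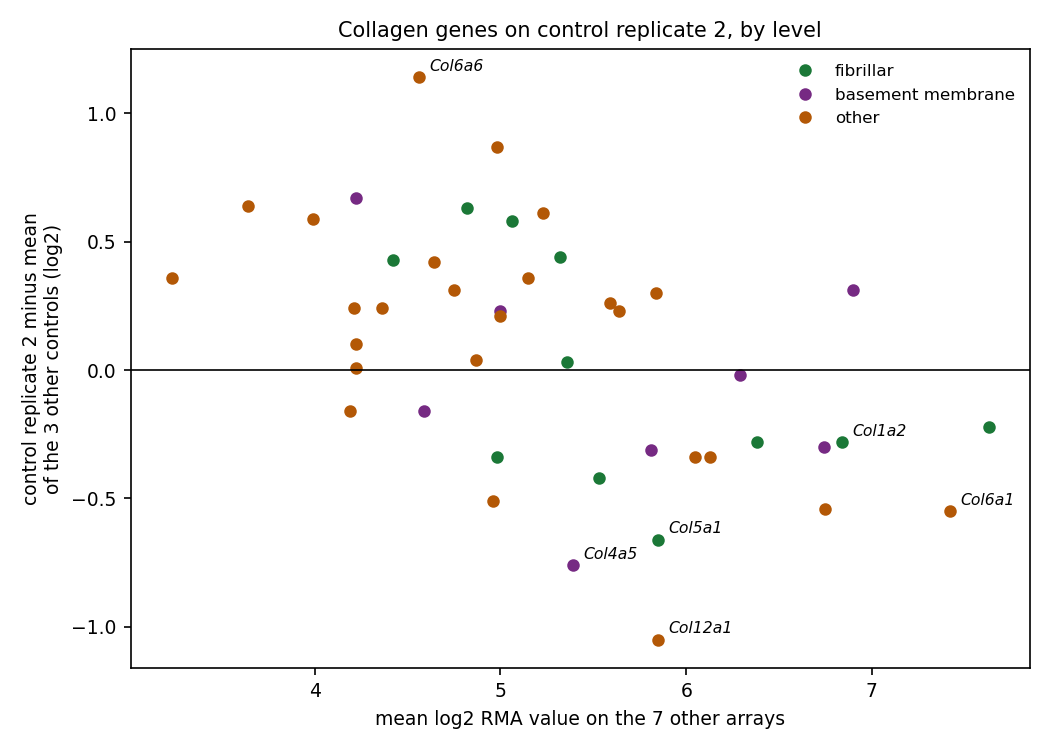
Each point is 1 of the 44 collagen genes, placed by its mean log2 RMA value on the 7 other arrays (horizontal) and by its value on control replicate 2 minus the mean of the other 3 controls (vertical, log2), with colours for the class. Dimmer collagens lie mostly above 0 and brighter ones, Col6a1 among them, mostly below it.

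The comparison of the genotypes asks whether collagen expression of the tumours differed when Bcl2l1 was deleted. Most collagens did not pass the test. Col26a1, Col6a1 and Col1a2 rose, by 1.62 to 1.8 times, and no collagen fell. At an unadjusted p under 0.05 in limma 9 of the tested collagens (25.7%) were higher and 0 lower, against 23.1% and 7.32% of all tested genes. Of the 44 members 35 lay above a filter at the 30th percentile of mean expression (4.38 on the log2 scale) and were tested with all genes. Just inside it were Col24a1 (mean 4.48) and Col4a4 (4.56), and just outside Col8a2 (4.37) and Col4a3 (4.30). The 3 higher collagens are 8.57% of those tested, where 4.93% of all 15526 genes were called higher at an adjusted p under 0.05, and 1.60% lower (limma, Benjamini-Hochberg adjustment over all genes tested). The median tested gene was itself 0.17 higher in the Bcl2l1-deleted tumours. A difference called relative below has this shift subtracted, and its SE and adjusted p are those of the fitted difference. The median collagen stood at -0.13 on that relative scale, with 12 members above the median gene and 23 below it. This balance changed with the setting. It was 22 above and 22 below with no filter on dim genes, 10 above and 6 below with the filter at the 50th percentile (median 0.11), and 23 above and 12 below with the receptor median as a covariate (median 0.14). Without control replicate 2 the collagen median was 0.01, with 18 above and 17 below, and the same 3 genes were called, against 8.95% of all genes called higher and 4.57% lower.

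**Figure D2:**
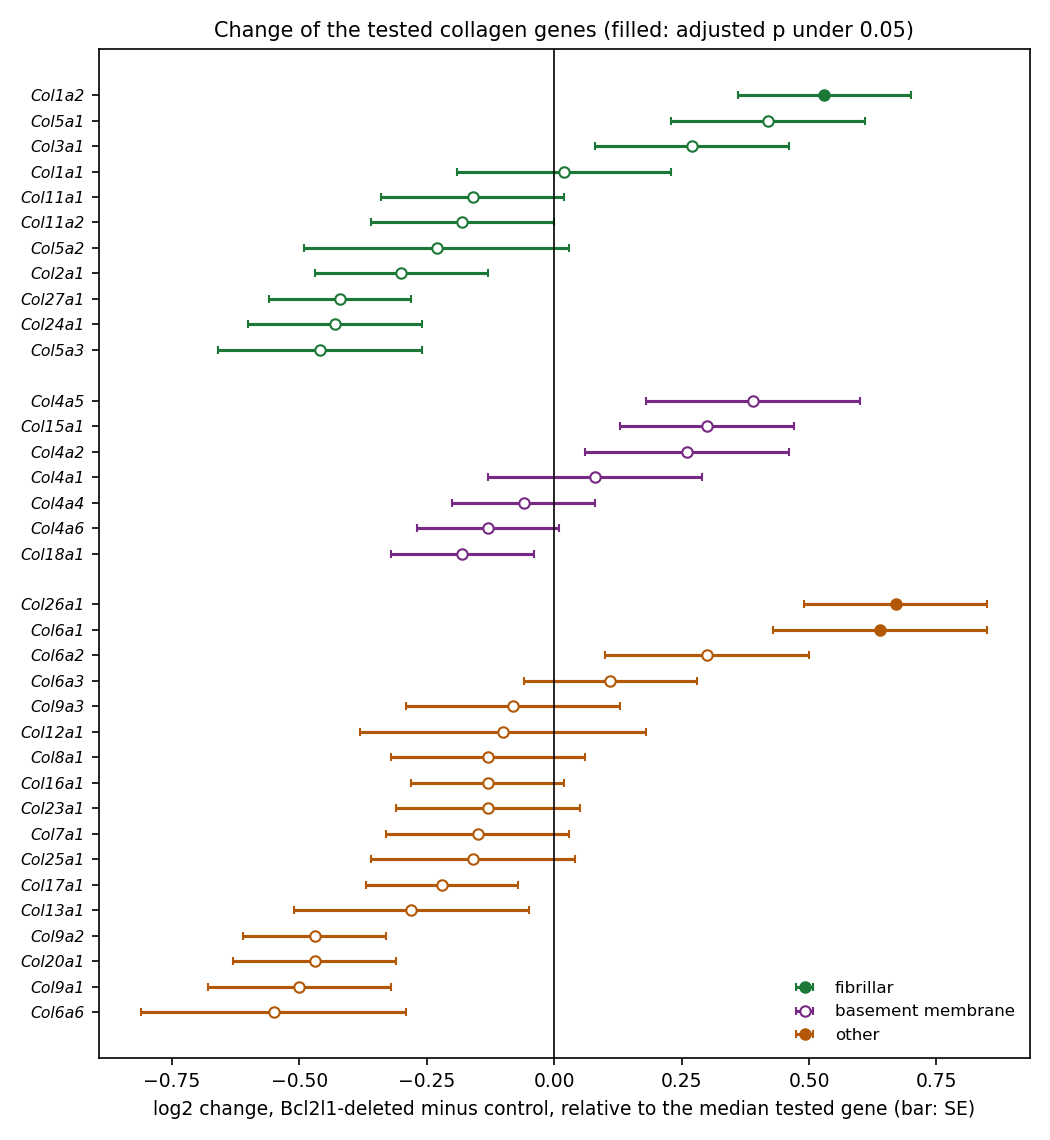
Fitted log2 change of each of the 35 tested collagens, Bcl2l1-deleted minus control, relative to the median tested gene (horizontal axis, bars are SE), grouped by class and sorted within it. Filled points mark Col1a2, Col26a1 and Col6a1, which passed an adjusted p of 0.05, and the remaining 32 are open.

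Groups that did not overlap were about as common among collagens as elsewhere. In 6 of the 35 tested members (17.1%) every Bcl2l1-deleted array was above every control array, against 19.0% of all tested genes. In 2 members (5.71%), Col9a2 and Col27a1, every Bcl2l1-deleted array was below every control array, against 4.46% of all tested genes. The 6 higher ones were Col1a2, Col5a1, Col4a5, Col15a1, Col6a1 and Col26a1. Each of the 6 was lowest of all arrays on control replicate 2 and highest on Bcl2l1-deleted replicate 2 or 4. In such genes the lowest array is a control and the highest a deleted one by definition. Control replicate 2 was the lowest array for 54.6% of all tested genes. Bcl2l1-deleted replicates 2 and 4 were the highest for 13.7% and 16.3%.

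**Figure D3:**
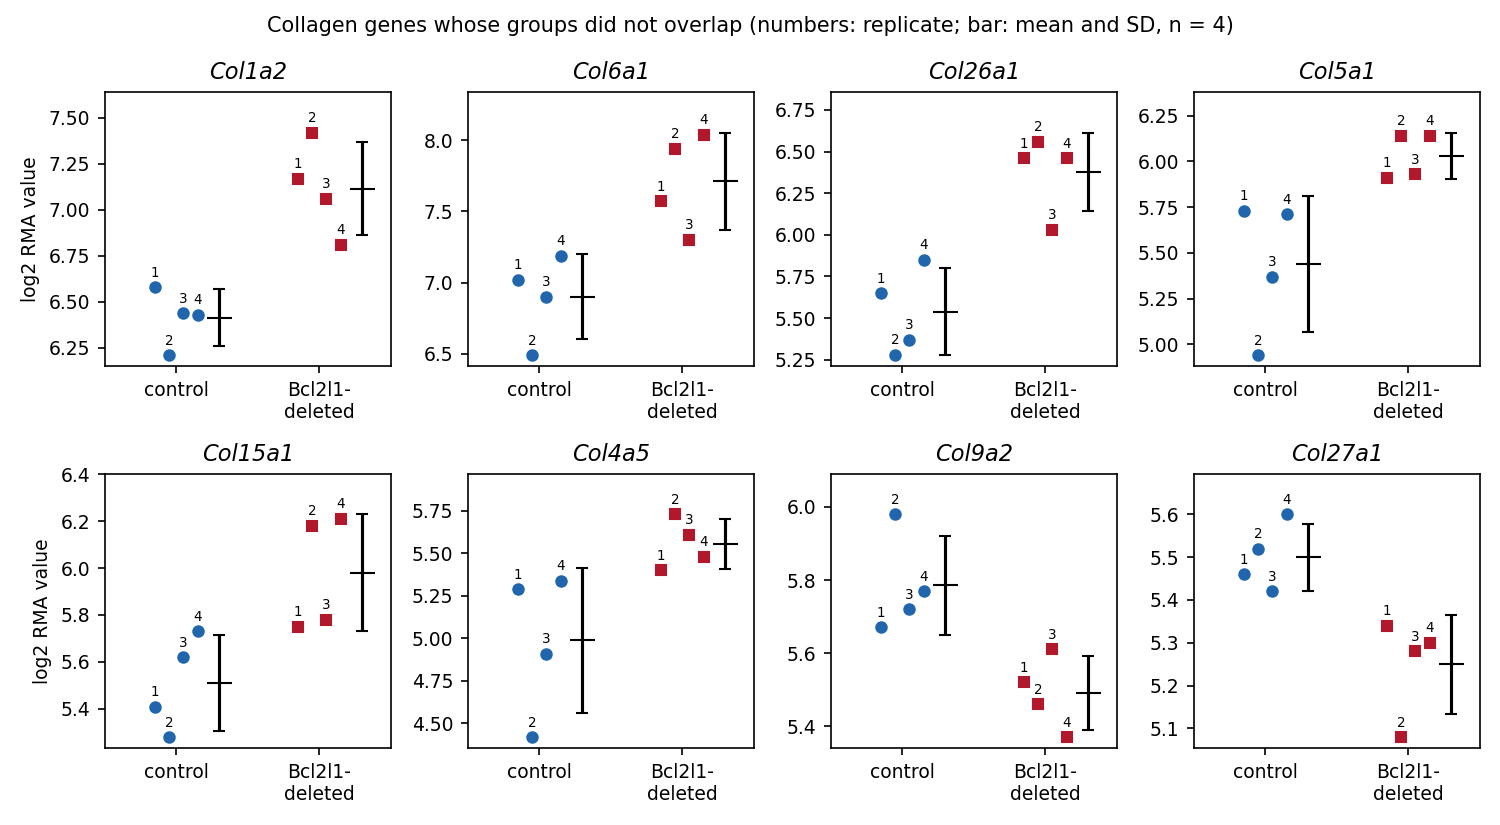
Log2 RMA values (vertical) of the 8 tested collagens whose groups did not overlap, by genotype, with the replicate number above each point and the mean and SD (n = 4) as a bar. The first 6 panels are higher in the Bcl2l1-deleted tumours, and Col9a2 and Col27a1 are lower.

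Among the fibrillar collagens 1 of 11 tested chains, Col1a2, rose and none fell, and 10 did not pass. Their median relative difference was -0.18, but 0.09 with the receptor median as a covariate and 0.26 for the 4 chains left by the filter at the 50th percentile. Col1a2 encodes the second chain of type I collagen, the most abundant fibre of connective tissue. Its log2 values were 7.17, 7.42, 7.06 and 6.81 on Bcl2l1-deleted replicates 1 to 4, and 6.58, 6.21, 6.44 and 6.43 on control replicates 1 to 4. The lowest deleted tumour thus lay above the highest control. The means were 7.11 ± 0.25 and 6.41 ± 0.16 (SD, n = 4 each), a fitted difference of 0.70 ± 0.17 (SE), or 0.53 relative to the median gene (limma adjusted p = 0.0384). A second probe set of Col1a2, tested after the data were seen, gave a fitted difference of 0.71 ± 0.18 with no overlap (limma adjusted p = 0.0406). The call of Col1a2 was lost without any 1 of Bcl2l1-deleted replicates 1 to 4 (adjusted p = 0.125, 0.127, 0.0744 and 0.0552) or without control replicate 3 or 4 (0.0646 and 0.0909), and held without control replicate 2 (0.0267).

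Col1a1, the other chain of type I collagen, overlapped between the genotypes. It read 7.71, 8.03, 7.35 and 7.68 on the Bcl2l1-deleted arrays and 7.10, 7.33, 7.58 and 7.97 on the controls, in replicate order. Control replicate 4 was near the top of the deleted range, and the relative difference was 0.02 (SE 0.21, limma adjusted p = 0.534). Its sign turned with quantile normalization (-0.10) and with the filter at the 50th percentile (-0.06). The within-array difference of the partners, Col1a2 minus Col1a1, was -0.58 ± 0.24 in the deleted tumours and -1.08 ± 0.42 in the controls (SD, n = 4 each). That shift of 0.50 did not pass (exact permutation test, two-sided, p = 0.114, adjusted p = 0.137 over 6 partner pairs chosen after the data were seen).

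Col3a1, the type III chain of vessel walls and meninges, read 6.64, 6.91, 6.19 and 6.41 on the Bcl2l1-deleted arrays and 5.93, 5.89, 6.14 and 6.43 on the controls. The groups overlapped through control replicate 4, and the relative difference of 0.27 (SE 0.19) did not pass (limma adjusted p = 0.155). Col5a1 encodes a type V chain that sits in the core of type I fibres and helps to start them. It read 5.91, 6.14, 5.93 and 6.14 against 5.73, 4.94, 5.37 and 5.71, with no overlap and a relative difference of 0.42 (SE 0.19, limma adjusted p = 0.0809), or 0.34 without control replicate 2 (adjusted p = 0.0607). Its probe sets disagreed: the second gave a fitted difference of -0.39 ± 0.21 (limma adjusted p = 0.231), with control replicate 2 highest at 5.66 where the first was lowest at 4.94. Col5a2, the usual partner of Col5a1, ranged from 4.20 to 5.43 in the deleted tumours and from 4.72 to 5.30 in the controls. The within-array difference Col5a1 minus Col5a2 shifted by 0.65 (exact permutation p = 0.0857, adjusted p = 0.137), and by 0.57 without control replicate 2.

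The minor fibrillar chains lay below the median gene, with none past the test. All were dim, between the 30th and 50th percentile of all genes. With the receptor median as a covariate 6 of the 11 fibrillar chains stood above the median gene, against 4 without it. Col24a1 and Col27a1 stayed below it. Col27a1, best known from cartilage, read 5.34, 5.08, 5.28 and 5.30 on the Bcl2l1-deleted arrays and 5.46, 5.52, 5.42 and 5.60 on the controls. These groups did not overlap, and the relative difference was -0.42 (SE 0.14, limma adjusted p = 0.231). Col24a1, a chain of developing bone and cornea, read 4.23, 4.50, 4.32 and 4.35 against 4.26, 4.93, 4.62 and 4.62, with overlap. Its relative difference was -0.43 with all arrays and -0.23 without control replicate 2, where it was highest. Of the other fibrillar chains, Col2a1, Col5a3, Col11a1 and Col11a2 lay between -0.46 and -0.16 on the relative scale, with adjusted p values from 0.335 to 0.991.

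None of the 7 tested basement membrane chains passed the test, and Col4a3 lay below the filter. Their median relative difference was 0.08, or 0.25 without control replicate 2 and -0.08 without control replicate 1. Col4a1 and Col4a2 encode the partner chains of the network found in nearly all basement membranes. Col4a1 read 7.14, 7.30, 6.58 and 7.16 on the Bcl2l1-deleted arrays and 6.40, 7.02, 6.68 and 7.05 on the controls. Col4a2 read 6.80, 7.19, 6.56 and 7.03 against 6.22, 6.23, 6.54 and 6.84. For both genes Bcl2l1-deleted replicate 2 was highest, Bcl2l1-deleted replicate 3 lay inside the control range, and control replicate 4 reached into the deleted range. The relative differences were 0.08 (SE 0.21) for Col4a1 and 0.26 (SE 0.20) for Col4a2 (limma adjusted p = 0.405 and 0.160). On control replicate 2 the partners parted, with Col4a2 minus Col4a1 at -0.78 and between -0.34 and -0.02 on the other 7 arrays. Between the genotypes it differed by 0.18 (exact permutation p = 0.371), and by 0.03 without that array. Without that array Col4a1 stood at 0.25 and Col4a2 at 0.28, the former with a sign that turned under quantile normalization (-0.02).

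Col4a5, a chain that joins either Col4a3 and Col4a4 or Col4a6, read 5.40, 5.73, 5.61 and 5.48 in the deleted tumours and 5.29, 4.42, 4.91 and 5.34 in the controls. The groups did not overlap, though by only a small margin. Its relative difference was 0.39 (SE 0.21, limma adjusted p = 0.106), and 0.29 without control replicate 2 (adjusted p = 0.103). Col4a6 read 5.0, 5.13, 5.06 and 4.99 against 4.97, 5.18, 4.87 and 5.01. The deleted values all lay inside the wider control range. The within-array difference of Col4a5 and Col4a6 was 0.51 ± 0.08 in the deleted tumours and -0.02 ± 0.51 in the controls (SD, n = 4 each). The exact permutation p was 0.0286 (two-sided), the smallest that 4 against 4 allows, and 0.0857 after adjustment over the 6 pairs. Without control replicate 2, where it was -0.76, the control mean was 0.23 ± 0.16 (SD, n = 3) and the shift fell from 0.52 to 0.28 (exact permutation p = 0.0286, the smallest that 35 regroupings allow, adjusted p = 0.171). Col4a4 read 4.59, 4.83, 4.52 and 4.52 in the deleted tumours and 4.44, 4.39, 4.56 and 4.64 in the controls. Its groups overlapped, with a relative difference of -0.06 (SE 0.14) whose sign turned in several settings.

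Col15a1 and Col18a1 are the multiplexins, which carry sugar chains and release antiangiogenic fragments. Col15a1 read 5.75, 6.18, 5.78 and 6.21 in the deleted tumours and 5.41, 5.28, 5.62 and 5.73 in the controls, without overlap. The relative difference was 0.30 (SE 0.17, limma adjusted p = 0.104), or 0.31 without control replicate 2 (adjusted p = 0.112). Col18a1, the source of endostatin, read 6.16 to 6.40 in the deleted tumours and 6.15 to 6.47 in the controls, with overlap and a relative difference of -0.18 (SE 0.14, limma adjusted p = 0.966).

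Of the other 25 collagens 17 were tested, 2 rose and none fell, and 15 did not pass (median relative difference -0.13). Col6a1 encodes a chain of the beaded type VI microfibrils. Its log2 values were 7.57, 7.94, 7.30 and 8.04 on Bcl2l1-deleted replicates 1 to 4 and 7.02, 6.49, 6.90 and 7.19 on control replicates 1 to 4. Bcl2l1-deleted replicate 3 and control replicate 4 came closest, without overlap. The means of 7.71 ± 0.34 and 6.90 ± 0.30 (SD, n = 4 each) gave a fitted difference of 0.81 ± 0.21 (SE), or 0.64 relative to the median gene (limma adjusted p = 0.0470). A second Col6a1 probe set, again looked at after the data were seen, read 5.70, 6.08, 5.66 and 5.75 against 4.65, 4.16, 4.63 and 4.78. Its gap between the groups was wider, with a fitted difference of 1.24 ± 0.18 (limma adjusted p = 0.0119). The call of Col6a1 held without control replicate 2 (adjusted p = 0.0424) but Col6a1 no longer passed when Bcl2l1-deleted replicate 1, 2 or 4 was left out (0.123, 0.142 and 0.122), nor without control replicate 3 or 4 (0.0749 and 0.0774).

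The partner chains of Col6a1 did not pass. Col6a2 read 6.30, 6.41, 6.14 and 6.34 in the deleted tumours and 5.59, 5.58, 5.76 and 6.40 in the controls. Only control replicate 4 reached the deleted range, and the relative difference was 0.30 (SE 0.20, limma adjusted p = 0.139). Col6a3 read 5.58, 6.01, 5.56 and 5.98 against 5.36, 5.67, 5.28 and 5.68, with overlap and a relative difference of 0.11 (SE 0.17, limma adjusted p = 0.274). Within arrays, Col6a1 minus Col6a2 differed by 0.34 between the groups and Col6a1 minus Col6a3 by 0.52 (exact permutation tests, two-sided, p = 0.114 and 0.0286, adjusted p = 0.137 and 0.0857 over 6 pairs). Without control replicate 2 these shifts were 0.29 and 0.33 (exact permutation p = 0.257 and 0.0571, adjusted p = 0.309 and 0.171). Col6a6, which can take the place of Col6a3, read 5.76 on control replicate 2 and 4.26 to 4.82 on all other arrays. Col6a4 and Col6a5 lay below the filter.

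Col26a1, which encodes a secreted protein with an EMI domain and short collagen stretches, had the smallest p of the family. It read 6.46, 6.56, 6.03 and 6.46 on the Bcl2l1-deleted arrays and 5.65, 5.28, 5.37 and 5.85 on the controls. Bcl2l1-deleted replicate 3 was the lowest of its group and still above every control. The means were 6.38 ± 0.24 and 5.53 ± 0.26 (SD, n = 4 each), a fitted difference of 0.84 ± 0.18 (SE), or 0.67 relative to the median gene (limma adjusted p = 0.0290). Only 1 probe set names it. Col26a1 no longer passed when Bcl2l1-deleted replicate 1, 2 or 4 was left out (adjusted p = 0.106, 0.104 and 0.0773), nor without control replicate 3 or 4 (0.0593 and 0.0521), and held without control replicate 2 (0.0211).

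The 6 tested fibril-associated collagens, which coat the surface of fibrillar collagen, all lay below the median gene on the relative scale (median -0.30), and none passed. Col9a2, a type IX chain of cartilage, read 5.52, 5.46, 5.61 and 5.37 in the deleted tumours and 5.67, 5.98, 5.72 and 5.77 in the controls, without overlap. Its relative difference was -0.47 (SE 0.14, limma adjusted p = 0.181), and -0.31 without control replicate 2, where it was highest. Col9a1 and Col9a3, its partners, overlapped at -0.50 and -0.08 (adjusted p = 0.245 and 0.766). Col20a1 read 5.01, 5.16, 4.83 and 5.26 against 5.26, 5.63, 5.15 and 5.39, again highest on control replicate 2 (relative difference -0.47, SE 0.16, adjusted p = 0.238). Col12a1, which binds type I fibres, spread from 4.91 to 6.51 over the controls and from 5.58 to 6.07 over the deleted tumours, and Col16a1 stood at -0.13 (adjusted p = 0.853). Without control replicate 2 or with the receptor median as a covariate, 5 of the 6 stayed below the median gene (medians -0.28 and -0.15). With quantile normalization (-0.21) or without control replicate 4 (-0.33) 4 did. With no filter on dim genes 4 of 9 were above it and 5 below (-0.07). Before the shift of the median gene was subtracted, the fitted differences of 3 were above 0 and of 3 below.

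The 4 transmembrane collagens, Col13a1, Col17a1, Col23a1 and Col25a1, also lay below the median gene (relative differences -0.28 to -0.13), and none passed. This did not hold without control replicate 2 (2 above, 2 below) or with the receptor median as a covariate (4 above). Col7a1, the anchoring fibril chain of skin, and Col8a1, a short-chain collagen of vessels, stood at -0.15 and -0.13 (adjusted p = 0.950 and 0.896). The 9 members below the filter were Col4a3, Col6a4, Col6a5, Col8a2, Col10a1, Col14a1, Col19a1, Col22a1 and Col28a1, and the groups overlapped in all 9. The widest spread among these was that of Col28a1, a chain of peripheral nerve, from 3.18 to 4.90.

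**Figure D4:**
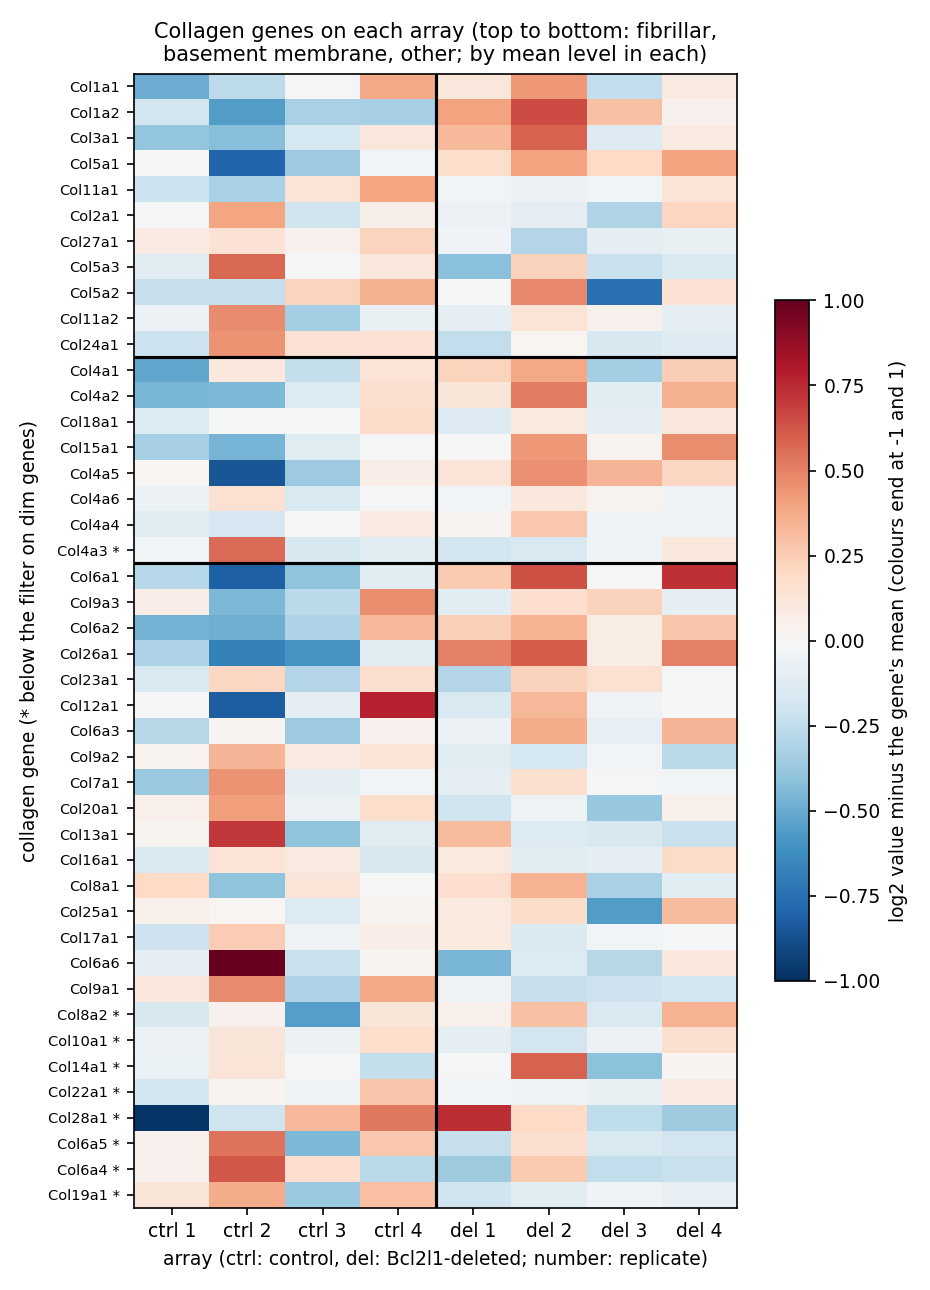
Log2 value of each of the 44 collagens on each array, minus the gene's mean over the 8 arrays, with controls left and Bcl2l1-deleted tumours right, and colours ending at -1 and 1. Col1a2, Col6a1 and Col26a1 are mostly above their mean on the deleted side. Many dim chains are highest on control replicate 2, which is the highest array for 16 of the 44 (36.4%) and the lowest for 13 (29.5%). Over all genes these shares are 27.9% and 39.3%.

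Mean levels of the classes overlapped between the genotypes. The mean over the 11 fibrillar chains was 5.52 to 5.87 on the Bcl2l1-deleted arrays and 5.48 to 5.77 on the controls. Over the 25 other chains it was 4.91 to 5.17 and 4.86 to 5.16. The basement membrane mean was 5.57 to 5.86 and 5.39 to 5.66. Within each class Bcl2l1-deleted replicate 2 was the highest deleted array, and control replicate 4 the highest control.

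Genes that modify and fold collagen chains showed 2 higher members of 18 tested, none lower and 16 that did not pass (median relative difference 0.30, where the median of all tested genes is 0 by construction). The counts of this list and of those that follow stand against 4.93% of all tested genes called higher and 1.60% lower, and the lists are small. Colgalt2, which adds galactose to hydroxylysine, rose by 0.63 relative to the median gene (SE 0.17, limma adjusted p = 0.0279). It read 5.89, 6.18, 5.89 and 5.65 on the deleted arrays and 5.10, 4.86, 5.39 and 5.07 on the controls. P4ha3, a prolyl hydroxylase subunit, rose by 0.97 (SE 0.29, adjusted p = 0.0457), with 6.83 to 7.55 in the deleted tumours and 5.36 to 6.70 in the controls, control replicate 2 being lowest; without that array it stood at 0.79 (adjusted p = 0.0363). The prolyl 3-hydroxylase P3h1 and its partner Crtap had no overlap but missed the threshold (adjusted p = 0.0645 and 0.0747). Serpinh1, the collagen chaperone HSP47, overlapped (adjusted p = 0.474). None of the 18 passed when arrays were centred on the tested genes, and 3 rose without control replicate 2. Of all tested genes 2.51% and 8.95% were called higher in these settings.

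Of 11 tested genes for propeptide removal and cross-linking 1 rose, none fell and 10 did not pass (median relative difference 0.00). Pcolce, which enhances removal of the carboxyl propeptide, rose by 0.56 relative to the median gene (SE 0.18, limma adjusted p = 0.0430). Its values were 6.37 to 6.84 in the deleted tumours and 5.43 to 6.07 in the controls. The lysyl oxidase genes Lox and Loxl1 overlapped (adjusted p = 0.435 and 0.641), and Loxl3 missed the threshold (0.0803). None of the 11 rose with arrays centred on the genes tested, where 2.51% of all genes were called higher.

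Among genes of collagen breakdown and its inhibitors 2 of 9 tested rose, none fell and 7 did not pass (median relative difference 0.44). Timp1, an inhibitor of matrix metalloproteinases, read 6.52, 6.03, 6.45 and 6.93 on the Bcl2l1-deleted arrays and 5.74, 4.65, 4.71 and 4.82 on the controls. It rose by 1.33 relative to the median gene (SE 0.27, limma adjusted p = 0.0172), and its call held in 19 of 21 alternatives, being lost without Bcl2l1-deleted replicate 1 (0.0735) or control replicate 4 (0.0560). Ctsk, a protease that cuts collagen helices, rose by 0.59 (SE 0.15, adjusted p = 0.0238), with 6.0 to 6.28 against 5.15 to 5.58. The collagenase genes Mmp8 and Mmp13 lay below the filter, and Mmp2 and Mmp14 did not pass (adjusted p = 0.104 and 0.494).

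Among 8 tested collagen receptors 1 rose, none fell and 7 did not pass (median relative difference 0.07). Lair1, an inhibitory receptor of leukocytes that binds collagen, rose by 0.89 relative to the median gene (SE 0.21, limma adjusted p = 0.0219), from 5.11 to 6.04 in the controls to 6.40 to 6.69 in the deleted tumours. The discoidin domain receptors Ddr1 and Ddr2 and the integrin chains Itga1 and Itgb1 overlapped (adjusted p = 0.780, 0.393, 0.507 and 0.284). The call of Lair1 was lost without each of Bcl2l1-deleted replicates 1 to 4 (0.0894, 0.0808, 0.0504 and 0.0510) or control replicate 4 (0.0679). Those of Colgalt2, P4ha3 and Pcolce were lost without each of Bcl2l1-deleted replicates 1 to 4, with adjusted p values up to 0.142, and that of Ctsk without replicates 1, 2 or 4 (up to 0.0936). Colgalt2, P4ha3, Pcolce and Ctsk also lost it without control replicate 4 (0.0768, 0.113, 0.0932 and 0.0557), and Pcolce without control replicate 3 (0.0657). Lair1, Colgalt2, P4ha3 and Pcolce did not pass with the receptor median or with Xist as a covariate. With the receptor median the limma adjusted p was 0.177 for P4ha3 and 0.143 for Pcolce. Of the breakdown genes and inhibitors 2 rose with the receptor median and 1 with Xist.

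Some markers of the cell types that make collagen were also higher in the Bcl2l1-deleted tumours. The median relative difference was 0.97 for fibroblast, 0.59 for endothelial and 0.27 for mural markers, against -0.13 for the collagens. The collagen value was not stable. It became 0.11 for the 16 members above the 50th percentile and 0.01 when control replicate 2 was dropped. Adjusting for the receptor median gave 0.14. Of the tested collagens 19 lay between the 30th and 50th percentile, and 14 of these were raised on control replicate 2. These medians therefore cannot show that collagens moved apart from the markers. Of 12 fibroblast markers that are not collagens 5 rose and none fell, and their summed level (log2 of the sum of linear values) was 11.95 to 12.31 in the deleted tumours and 10.69 to 11.66 in the controls. Of 10 tested endothelial markers 5 rose and none fell, with a summed level of 10.59 to 10.69 against 9.52 to 10.04. Of 11 mural markers 4 rose and none fell (11.46 to 11.78 against 10.21 to 11.07). Microglia and macrophage markers had 7 higher of 10 (11.71 to 12.02 against 10.21 to 11.29). Of 6 choroid plexus markers 2 fell, Ttr, a thyroid hormone carrier, and Folr1, a folate receptor. Their summed level of 8.66 to 8.98 against 11.24 to 11.76 was carried by Ttr (5.70 to 6.85 against 10.95 to 11.48), and that of the other 5 was 8.41 to 8.66 against 8.70 to 9.26. Of 10 cartilage and bone markers, of which 9 were measured, only 3 lay above the filter and none of these passed. Control replicate 2 was the lowest control in the summed fibroblast, endothelial, mural and macrophage levels. Of the endothelial markers 1 lay below the filter. Without control replicate 2 the higher counts were 6 fibroblast, 5 endothelial, 5 mural and 7 macrophage markers, while centring on the tested genes gave 4, 4, 3 and 5. Of all tested genes 8.95% and 2.51% were called higher in these settings. Leaving out other arrays cost more calls: without Bcl2l1-deleted replicate 1 the counts were 1, 0, 0 and 0, without Bcl2l1-deleted replicate 2 they were 1, 0, 0 and 1, and without control replicate 4 they were 3, 1, 1 and 4. Calls fell over all genes as well. The shares called higher there were 0.103%, 0.238% and 0.76%, against 4.93% with all arrays. Mural markers counted 1 without Bcl2l1-deleted replicate 3 or 4 and 0 without control replicate 3, and endothelial markers 2 without Bcl2l1-deleted replicate 3 or 4 and 3 without control replicate 3. Macrophage markers counted 4 without Bcl2l1-deleted replicate 3. Over all genes 1.65% were called higher without Bcl2l1-deleted replicate 3, 1.19% without Bcl2l1-deleted replicate 4 and 2.3% without control replicate 3. With the receptor median as a covariate the counts were 4, 3, 1 and 4, and with Xist 3, 1, 0 and 4. The shares of all genes called higher were 1.76% and 0.953%. The part of these markers in the differences of Col1a2, Col6a1 and Col26a1 was not tested.

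The calls of all 3 collagens also depended on how the arrays were scaled. Centring on the median of all probe sets kept Col1a2, Col6a1 and Col26a1 (limma adjusted p = 0.0309, 0.0356 and 0.0237), with 8.61% of all genes called higher. Quantile normalization kept Col1a2 (0.0349) and Col26a1 (0.0332) and lost Col6a1 (0.058), with 5.39% of all genes called higher. With each array centred on the median of the genes tested, no collagen passed in either direction, against 2.51% of all genes called higher and 4.50% lower. The relative differences of Col1a2, Col6a1 and Col26a1 were the same there (0.53, 0.64 and 0.67), with adjusted p of 0.0904, 0.0855 and 0.0605. With the receptor median or the Xist level as a covariate no collagen passed either, and in all 21 alternatives the relative differences of these 3 genes stayed above 0, from 0.43 to 1.07. Several of these alternatives could not change that sign. Centring, the prior and the replicate block leave a relative difference as it is.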

How the data were processed

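The authors deposited log2 RMA expression values, 1 column per tumour array, made in Partek by its gene expression workflow, per the labels. RMA corrects background, normalizes arrays, summarises probes into probe sets and compresses differences near background. Its version and options: not given in the sources used here. Groups follow the sample titles; a status field reading deleted for all 8 samples was not used.

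Of 41345 probe sets 23521 had 1 gene symbol in the platform annotation, 1814 several and 16010 none. Entrez identifiers matched 23328 to a RefSeq table (GRCm38.p6), which changed 0 symbols and served for names and promoter windows. A dim filter at the 30th percentile of gene means left 15526 genes. The genotype difference came from limma 3.58.1 (R 4.3.3, lmFit, eBayes, two-sided, Benjamini-Hochberg over all tested genes, threshold 0.05). The procedure was run on simulated data with independent noise of the same SD per gene on all arrays. Those data held no array like control replicate 2 and no background shift between the genotypes, so they cannot show how the procedure handles these. Every adjusted p of a gene is from limma. Array-level values were tested by exact permutation (70 regroupings). The 4 arrays per group limit the precision.

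The members, classes and lists were chosen with earlier results of these data known. Values on every array were given for each collagen past the threshold, the 5 of each class with the smallest p, and some of their partner chains. Other partner chains were given by ranges or by their differences. Of the pathway lists up to 4 genes with the smallest p were to be named. Mmp, Serpinh1, Lox, Ddr and integrin genes were added after their values were seen. Alternatives changed the dim filter, the prior (robust, or with an intensity trend), the scaling, array weights, covariates, a replicate block and the probe set, or left out each array.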

Additional observations from a re-analysis of the deposited data

Results flagged for a closer look

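In 88 groups of 4 arrays (44 collagens in 2 genotypes) and those of Bcl2l1, 2 single arrays stood far from the others of their group by Dixon's criterion, where chance gives about 1 in 20 groups. Col11a1, a fibrillar chain, read 5.61 on Bcl2l1-deleted replicate 4 and 5.43 to 5.46 on the other deleted arrays. Col25a1, a transmembrane collagen of neurons, read 4.73 on control replicate 3 and 4.89 to 4.92 on the other controls. The standard errors of the genotype differences of these genes were 0.18 and 0.20, and neither gene passed the test. None of these flags fell on control replicate 2.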

How the results depend on the processing

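The direction of Col1a2, Col6a1 and Col26a1 held in every alternative run, while their calls did not, and Bcl2l1 was lower in all 21. Part of this was fixed in advance. Changes of the prior, both centrings and the replicate block leave a relative difference as it is. The groups of these genes did not overlap, so leaving out 1 array could not reverse a fitted difference. Col26a1 has 1 probe set, so the choice of probe set could not alter its values. The count of 3 higher collagens became 1 with no filter on dim genes, 0 with arrays centred on the genes tested, 0 with the receptor median and 0 with Xist as a covariate, 5 with array weights, and ranged from 0 to 4 when an array was left out. The replicate block left 1 (Col26a1) and 0 mural markers, with 0 fibrillar and 1 other chain, and 358 genes higher and 150 lower over all; same-numbered arrays did not deviate together (correlations 0.04, 0.02, -0.13 and 0.05). Fibrillar chains counted 0 with no filter, centring on the genes tested or either covariate, 2 with array weights, and 0 to 2 with an array left out. Basement membrane chains counted 1 with array weights. Other chains counted 1 with no filter or quantile normalization, 0 with centring on the genes tested or either covariate, and 0 to 2 with an array left out.

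Over all genes, 389 were higher and 159 lower with no filter, 160 lower with the filter at the 50th percentile, 1337 higher (171 lower) with arrays centred on all probe sets, 390 and 699 centred on the genes tested, 2442 and 1052 with array weights, 273 and 404 with the receptor median, 148 and 52 with Xist, and 16 to 1612 higher and 4 to 710 lower with an array left out.

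Signs turned for genes that had not passed, most of them near 0. Col5a1, at 0.42 with its brightest probe set, stood at -0.06 with the mean of its probe sets and -0.55 with its second one. Col4a1 stood at -0.02 with quantile normalization and ranged from -0.08 to 0.25 with an array left out. Col4a4 stood at 0.07 with no filter, 0.17 with quantile normalization, 0.01 with array weights and 0.03 with the receptor median. Col1a1 stood at -0.06 with the filter at the 50th percentile, -0.10 with quantile normalization, and ranged over -0.14 to 0.16 with an array left out. Col4a6 stood at 0.00 with no filter, 0.06 with quantile normalization, 0.02 with array weights and 0.12 with the receptor median, and ranged over -0.21 to 0.01; Col5a2 ranged over -0.40 to 0.00. Apart from the filters and left-out arrays, which change the genes or samples tested, the cause was not tested. Dim collagens near background limit what can be seen: 9 were not tested.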
